A study of Mus musculus with 24 samples.

Results

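The 7 genes described here are used as markers of unipolar brush cells and glutamatergic nuclear neurons, excitatory neurons of the cerebellum, though some are also made by granule neurons. They are *Eomes*, *Lmx1a* and *Calb2* of unipolar brush cells, *Tbr1* and *Meis2* of glutamatergic nuclear neurons, and *Slc17a6* and *Slc17a7*, the vesicular glutamate transporters. Each was taken as the probe set annotated to that gene alone, and each gene had 1 such probe set, so that 7 of the 22180 genes with a probe set of their own are described. Levels were read in 6 *G-Smo* and 6 *M-Smo* medulloblastomas, each an untreated tumor taken at P15 from a mouse on the C57BL/6 background and put on 1 Affymetrix array. In *G-Smo* mice *hGFAP-Cre*, active from neural stem cells onward, and in *M-Smo* mice *Math1-Cre*, active in rhombic lip progenitors, turns on *SmoM2*, the oncogenic *Smo* allele that both genotypes carry. The 12 arrays of irradiated tumors, taken 2 h after 10 Gy, have no value for any of the 7 probe sets. No normal cerebellum is among the arrays.

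The rhombic lip is the dorsal germinal zone of the hindbrain whose progenitors express *Atoh1*, also called *Math1*. It gives rise to the glutamatergic neurons of the cerebellar nuclei, then to granule neuron progenitors, the cells from which SHH medulloblastoma grows, and to unipolar brush cells, excitatory interneurons of the granular layer. EOMES (also known as TBR2) and LMX1A are transcription factors of the unipolar brush lineage, and TBR1 is a T-box factor of a medial group of nuclear neurons. VGLUT2, the product of *Slc17a6*, and VGLUT1, that of *Slc17a7*, load glutamate into synaptic vesicles. In the cerebellum VGLUT2 is typical of younger and of nuclear neurons and VGLUT1 of mature granule neurons.

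Of the 7 genes, 3 averaged higher and 4 lower in *G-Smo* than in *M-Smo* tumors, and none passed limma at an adjusted p under 0.05 over all probe sets, where 2.56% of the 41345 passed. At an unadjusted p under 0.05 there were 3 of 7, against 18.9% of all probe sets. *Slc17a6* was on the higher side, where 10.2% of all probe sets were, and *Lmx1a* and *Calb2* were on the lower side, where 8.65% were. Neither the unmoderated test per probe set nor the exact permutation test called any of the 7 after the same adjustment, and each had 2 at an unadjusted p under 0.05. No gene separated the genotypes without overlap, which 3.46% of all probe sets did. The median log2 difference, *G-Smo* minus *M-Smo*, was -0.13 over the 7 genes and 0.00 over all probe sets, and the median absolute difference was 0.33 against 0.10. Values come from whole tumors, so fewer cells of a type and less RNA per cell cannot be told apart. In the plot of single tumors each gene has its own scale, since probe sets differ in how strongly they bind and their levels cannot be ranked against each other.

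**Figure D1:**
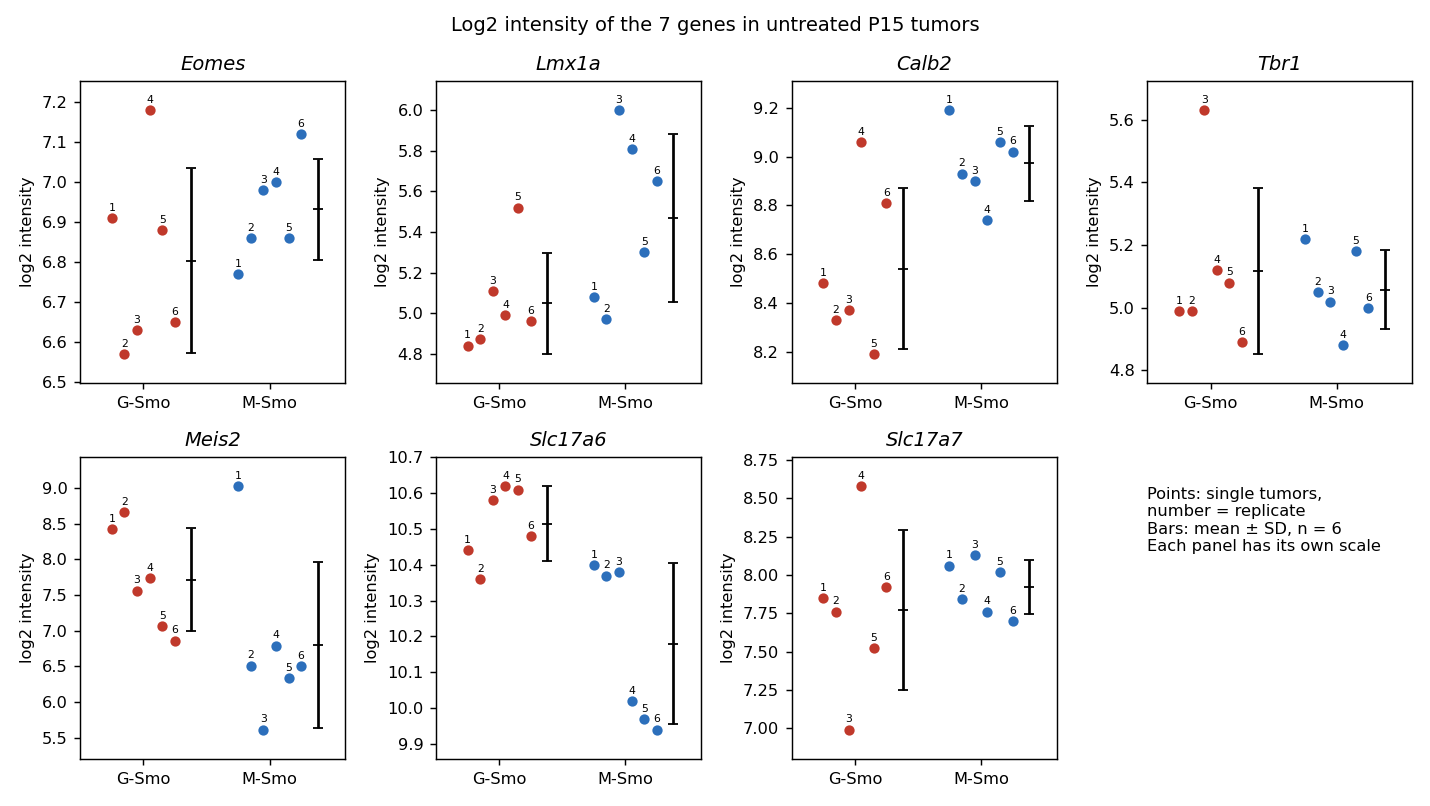
Log2 intensity of each gene (vertical axis) in single untreated P15 tumors, numbered by replicate, with *G-Smo* left of *M-Smo*; bars give the mean and SD of 6 tumors. *Slc17a6* lies at 10.36 to 10.62 in *G-Smo* and 9.94 to 10.40 in *M-Smo* tumors, while *Meis2* spans 5.61 to 9.03 over the 12 tumors.

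*Eomes*, the T-box factor of unipolar brush cells, had a lowest, median and highest log2 intensity of 6.57, 6.77 and 7.18 in *G-Smo* tumors, against 6.77, 6.92 and 7.12 in *M-Smo* tumors. The groups overlapped, with 3 *G-Smo* tumors below every *M-Smo* tumor and replicate 4 above all of them. The means were 6.80 ± 0.23 and 6.93 ± 0.13 (SD, n = 6 each), a log2 difference of -0.13 (95% confidence interval -0.35 to 0.10, adjusted p = 0.545 from limma). The interval admits *G-Smo* levels from 0.79 to 1.07 times those of *M-Smo* tumors, so that a change of 2-fold lies outside it. *Eomes* is also known from natural killer and T cells, whose list of 6 genes (*Ncr1*, *Nkg7*, *Klrb1c*, *Gzma*, *Cd3e* and *Tbx21*) averaged 4.85 to 5.22 in *G-Smo* and 4.97 to 5.29 in *M-Smo* tumors, with none of the 6 past the test and *Nkg7* (-0.25) and *Cd3e* (-0.10) nearest to it.

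*Lmx1a*, a LIM-homeodomain factor of the roof plate, rhombic lip and unipolar brush lineage, had a lowest, median and highest log2 intensity of 4.84, 4.97 and 5.52 in *G-Smo* tumors, against 4.97, 5.47 and 6.00 in *M-Smo* tumors. Replicate 5 was the highest *G-Smo* tumor, and *M-Smo* replicates 3, 4 and 6 lay above every *G-Smo* tumor. The means were 5.05 ± 0.25 and 5.47 ± 0.41 (SD, n = 6 each), and the log2 difference of -0.42 (95% confidence interval -0.81 to -0.03) had an adjusted p of 0.233 from limma. This probe set is dim. Its mean stood at the 31.2nd percentile of all probe sets, and 5% of the 1108 olfactory receptor probe sets, genes not expected in a brain tumor, had a mean above 5.60.

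*Calb2* encodes calretinin, a calcium-binding protein of unipolar brush cells that other cerebellar neurons, granule neurons among them, also make. It had a lowest, median and highest log2 intensity of 8.19, 8.42 and 9.06 in *G-Smo* tumors, against 8.74, 8.98 and 9.19 in *M-Smo* tumors. *G-Smo* replicates 1, 2, 3 and 5 were lower than all of the *M-Smo* tumors, whereas replicates 4 and 6 lay within their range. The means were 8.54 ± 0.33 and 8.97 ± 0.15 (SD, n = 6 each), a log2 difference of -0.43 (95% confidence interval -0.73 to -0.14, adjusted p = 0.115 from limma). Without *G-Smo* replicate 4 the difference was -0.54 and passed the test (adjusted p = 0.0346 from limma), and it missed the threshold without any other single tumor, up to an adjusted p of 0.219 from limma.

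*Tbr1*, the T-box factor of nuclear neurons, had the smallest difference of the 7. Its lowest, median and highest log2 intensity were 4.89, 5.04 and 5.63 in *G-Smo* tumors, against 4.88, 5.04 and 5.22 in *M-Smo* tumors. The medians were the same to 2 decimals, and the 1 *G-Smo* tumor above all others was replicate 3. The means were 5.12 ± 0.26 and 5.06 ± 0.12 (SD, n = 6 each), with a log2 difference of 0.06 (95% confidence interval -0.19 to 0.30, adjusted p = 0.827 from limma) that became -0.04 without *G-Smo* replicate 3. Like *Lmx1a*, the probe set was dim, at the 28.0th percentile of mean intensity.

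*Meis2*, a TALE-class homeodomain factor of nuclear neurons that many other brain regions also express, varied most. Its lowest, median and highest log2 intensity were 6.86, 7.65 and 8.66 in *G-Smo* tumors, against 5.61, 6.51 and 9.03 in *M-Smo* tumors. All 6 *G-Smo* tumors lay above the other 5 *M-Smo* tumors, and *M-Smo* replicate 1 alone, at 9.03, lay above every *G-Smo* tumor. From the lowest to the highest tumor this is a 10.7-fold span, and the SD over the 12 tumors, 1.04, stood at the 99.7th percentile of all probe sets. The means were 7.72 ± 0.72 and 6.80 ± 1.16 (SD, n = 6 each), a log2 difference of 0.92 (95% confidence interval -0.16 to 2.00, adjusted p = 0.341 from limma). Without *M-Smo* replicate 1 the difference was 1.37 and the adjusted p 0.0596 from limma. That tumor also stood apart in a list of brain stem and motor neuron genes, averaging 6.94 on the log2 scale where *G-Smo* tumors averaged 5.72 to 5.91 and the remaining *M-Smo* tumors 6.01 to 6.15. The list means of the genotypes did not overlap, so Pearson's r of *Meis2* with the list is given within genotypes. It was -0.82 in *G-Smo* tumors (exact permutation p = 0.0458), where *Meis2* was thus lower in tumors with a higher list mean. In *M-Smo* tumors, replicate 1 among them, it was 0.95 (exact permutation p = 0.0569). That value rests largely on replicate 1, since the remaining *M-Smo* tumors lay within 6.01 to 6.15 on the list and 5.61 to 6.79 in *Meis2*. The r within *M-Smo* tumors without replicate 1 was not computed. *M-Smo* replicate 1 was also apart in a list of general neuron genes, at 10.95 against 10.21 to 10.45 in the remaining *M-Smo* tumors. In a list of GABAergic and glycinergic genes it had 7.93 against 7.29 to 7.39. Within *M-Smo* tumors *Meis2* had an r of 0.84 and 0.89 with these lists (exact permutation p = 0.151 and 0.167). The relation of *Meis2* is thus not shown to be particular to brain stem and motor neurons. The part of such tissue in the *Meis2* level was not tested.

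The labels do not give the sex of the mice, and *Meis2* was set beside *Xist*. High *Xist*, an RNA made in female cells, was seen in *G-Smo* replicates 1 to 5 and in *M-Smo* replicates 1 and 6. *Meis2* read 7.06 to 8.66 in those *G-Smo* tumors and 6.86 in the remaining *G-Smo* tumor. It read 9.03 and 6.50 in the *M-Smo* tumors with high *Xist* and 5.61 to 6.79 in the other *M-Smo* tumors. Of the *M-Smo* tumors with high *Xist*, replicate 6 thus lay among those with low *Xist* and replicate 1 above them. When *Xist* and the Y-linked genes entered limma as 1 covariate, the *Meis2* difference was 0.24 (adjusted p = 0.849 from limma). That of *Slc17a6* was 0.32 (adjusted p = 0.212 from limma). *Meis2* itself was not tested against sex.

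*Slc17a6*, which encodes VGLUT2, came closest to the threshold. Its lowest, median and highest log2 intensity were 10.36, 10.53 and 10.62 in *G-Smo* tumors, against 9.94, 10.20 and 10.40 in *M-Smo* tumors. Of the *G-Smo* tumors 5 lay above every *M-Smo* tumor, and replicate 2, at 10.36, lay just below *M-Smo* replicates 1, 2 and 3, which read 10.40, 10.37 and 10.38. *M-Smo* replicates 4, 5 and 6 read 10.02, 9.97 and 9.94, well apart from the first 3, so that the *M-Smo* mean lies where no tumor does. The means were 10.51 ± 0.10 and 10.18 ± 0.23 (SD, n = 6 each), a log2 difference of 0.33 (95% confidence interval 0.12 to 0.55, adjusted p = 0.0947 from limma). With array weights, which give less weight to arrays that fit the model poorly, it was 0.39 and passed (adjusted p = 0.0421 from limma).

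*Slc17a7*, which encodes VGLUT1, had a lowest, median and highest log2 intensity of 6.99, 7.81 and 8.58 in *G-Smo* tumors, against 7.70, 7.93 and 8.13 in *M-Smo* tumors. The *M-Smo* tumors lay wholly inside the *G-Smo* range, whose ends were replicates 3 and 4. The means were 7.77 ± 0.52 and 7.92 ± 0.17 (SD, n = 6 each), with a log2 difference of -0.15 (95% confidence interval -0.59 to 0.29, adjusted p = 0.748 from limma). Without *G-Smo* replicate 3 the difference was 0.01.

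**Figure D2:**
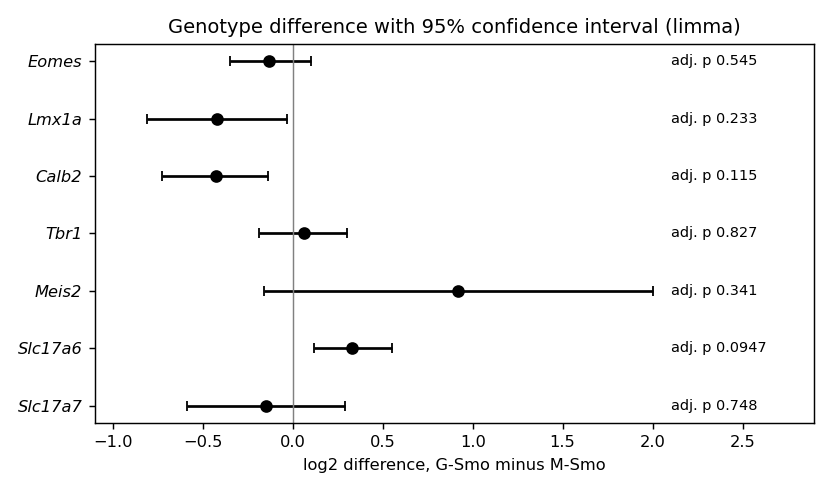
Log2 difference, *G-Smo* minus *M-Smo*, of each gene (horizontal axis) with its 95% confidence interval and adjusted p from limma, over 6 tumors of each genotype. The intervals of *Lmx1a*, *Calb2* and *Slc17a6* leave out 0, but no adjusted p is under 0.05, and *Meis2* has the widest interval, -0.16 to 2.00.

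The stretch before the start is shown for both transporter genes, which share a function and had differences of opposite sign. Neither difference was called, their intervals overlap, and one was not tested against the other. RefSeq windows were found for 6 of the 7 genes, and *Calb2* is named only. The 250 bases before the start were searched on both strands for a T-box site (GGTGTGA), a LIM-homeodomain core (TAATTA), a MEIS site (TGACAG) and an E-box (CAGCTG), and no matches overlapped in these windows. Capitals mark a match. The windows lie at chr7:51621580-51621829 and chr7:45163671-45163920 of GRCm38.p6, both on the plus strand, and end at the base before the start.
Slc17a6: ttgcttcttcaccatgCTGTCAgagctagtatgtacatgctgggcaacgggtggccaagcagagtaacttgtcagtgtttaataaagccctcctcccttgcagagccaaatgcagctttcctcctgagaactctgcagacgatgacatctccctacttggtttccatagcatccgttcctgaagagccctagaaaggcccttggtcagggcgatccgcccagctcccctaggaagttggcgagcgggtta
Slc17a7: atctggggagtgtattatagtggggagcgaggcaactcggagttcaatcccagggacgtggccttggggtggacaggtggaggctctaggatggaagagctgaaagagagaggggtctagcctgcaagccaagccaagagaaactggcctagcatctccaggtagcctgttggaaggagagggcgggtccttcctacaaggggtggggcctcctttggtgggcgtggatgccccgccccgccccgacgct
The *Slc17a6* window held 1 MEIS site, 234 bases before the start, and *Slc17a7* held none of the 4 motifs. A second *Slc17a6* start had 1 LIM-homeodomain core in its window, the *Tbr1* window held 2 of these and 1 MEIS site, and the windows of *Eomes*, *Lmx1a* and *Meis2* had no match. Among 32851 RefSeq windows of the same length, 3.33% held the T-box site, 4.84% the LIM-homeodomain core, 15.9% the MEIS site and 13% the E-box. GC content was 53.2% before *Slc17a6* and 61.2% before *Slc17a7*.

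Across the 12 tumors the 7 genes did not move as a block. Of 21 pairs, 8 had a positive and 13 a negative Pearson's r, from -0.68 to 0.66, and none passed after Benjamini-Hochberg adjustment over the pairs (permutation test, lowest adjusted p = 0.175), with 2 at an unadjusted p under 0.05. The highest r was that of *Calb2* and *Slc17a7*, at 0.66 (permutation p = 0.012, adjusted p = 0.175) and Spearman's rho = 0.69 (permutation p = 0.0168, adjusted p = 0.284). Within 6 *G-Smo* tumors r was 0.79 (exact permutation p = 0.0514) and within 6 *M-Smo* tumors 0.39 (exact permutation p = 0.449). It was 0.70 (permutation p = 0.0221) without the pair of tumors farthest from the *Calb2* median. Over all probe sets, 6.98% were correlated with *Calb2* at least as strongly as *Slc17a7* was, in either direction.

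The lowest r was that of *Lmx1a* and *Meis2*, at -0.68 (permutation p = 0.0167, adjusted p = 0.175) and rho = -0.64 (permutation p = 0.027, adjusted p = 0.284). Within genotypes r was -0.62 in *G-Smo* tumors (exact permutation p = 0.186) and -0.55 in *M-Smo* tumors (exact permutation p = 0.256). It was -0.54 (permutation p = 0.11) without the pair of tumors farthest from the *Lmx1a* median. For the pair of unipolar brush factors, *Eomes* and *Lmx1a*, r was 0.48 (permutation p = 0.114) and rho 0.48 (permutation p = 0.114). *Slc17a6* and *Slc17a7* had an r of -0.03 (permutation p = 0.915) and a rho of 0.11 (permutation p = 0.734), with an r of -0.01 within *G-Smo* (exact permutation p = 0.988) and 0.59 within *M-Smo* tumors (exact permutation p = 0.142). *Eomes* and *Slc17a7* had opposite signs in the genotypes, at 0.68 in *G-Smo* (exact permutation p = 0.142) and -0.61 in *M-Smo* tumors (exact permutation p = 0.19). Their pooled r of 0.51 (permutation p = 0.0903) thus stands for neither. *Eomes* and *Calb2* also changed sign, at 0.52 (exact permutation p = 0.299) and -0.50 (exact permutation p = 0.3). The difference between genotypes in r was not tested.

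**Figure D3:**
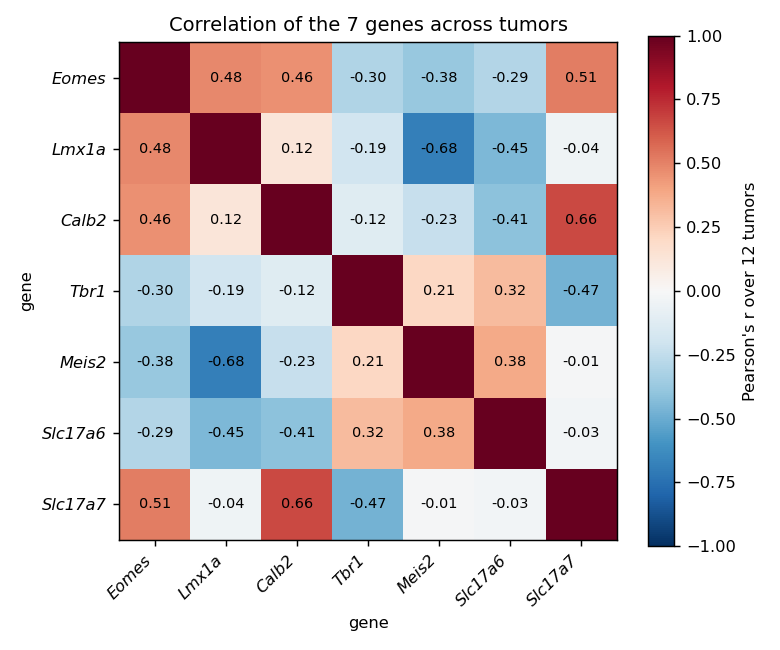
Pearson's r of each pair of the 7 genes over 12 untreated tumors (both axes list the genes, and colour runs from -1 to 1). The strongest cells are -0.68 for *Lmx1a* with *Meis2* and 0.66 for *Calb2* with *Slc17a7*.

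The genes most like each of the 7 were ranked by Pearson's r over the 12 tumors after the genotype means were subtracted, as a description without a test. The ranking took in 17135 protein-coding genes, left after predicted, numbered and olfactory receptor genes were set aside. *Slc17a7* was most like *Cbln3* (0.95), *Chn2* (0.94) and *Grm4* (0.94). Within genotypes these r were 0.98 to 0.99 in *G-Smo* but only 0.66 to 0.74 in *M-Smo* tumors. *Cbln3* encodes a cerebellin of mature granule neurons and *Grm4* a metabotropic glutamate receptor of their parallel fibers, and *Cbln3* read 7.91 to 9.76 in *G-Smo* and 8.88 to 9.37 in *M-Smo* tumors. *Slc17a6* was most like *Bach2*, a transcriptional repressor, *Cacna1c*, which encodes an L-type calcium channel subunit, and *Erbb4*, a neuregulin receptor, each at 0.95. Their r ran from 0.81 to 0.94 within *G-Smo* and from 0.95 to 0.98 within *M-Smo* tumors. *Meis2* was most like *Acot7* (0.95), an acyl-CoA thioesterase, *Clic1* (0.93), a chloride channel protein, and *Il6st* (0.90), the shared receptor subunit of the interleukin-6 family.

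*Lmx1a* was most like *Ccdc151* (0.93), a factor that docks dynein arms in motile cilia, *Tpt1* (0.92) and *Lrp2* (0.92), the endocytic receptor megalin. *Calb2* was most like *Lrat* (0.95), which esterifies retinol, *Pcsk1* (0.91), a prohormone convertase, and *Abcg4* (0.91), a lipid transporter. *Eomes* was most like *Kcnj4*, *Slc7a7* and *Hopx*, each at 0.91. *Tbr1* was most like *Tshz3* (0.91), *Vmn1r193* (0.90) and *Scgb2b19* (0.89), a list that holds a vomeronasal receptor and a secretoglobin. Some of these signals were as dim as *Lmx1a*, among them *Lrat* (4.66 to 5.19 over the 12 tumors), *Kcnj4* (5.04 to 5.61) and *Scgb2b19* (2.73 to 3.74). Within *M-Smo* tumors *Pcsk1* had an r of 0.62 with *Calb2*, against 0.98 within *G-Smo* tumors. With 12 tumors and 17135 genes searched, the rank of a gene is not a test of its likeness.

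Each of the 7 was also set against the mean of 14 lists of other genes, which makes 98 relations, a family added after the values had been seen. *Lmx1a* was correlated with the mean of 7 choroid plexus genes (*Ttr*, *Kl*, *Folr1*, *Kcne2*, *Aqp1*, *Clic6* and *Otx2*), at r = 0.87 (permutation p = 0.00071, adjusted p = 0.0252 over the family) and rho = 0.83 (permutation p = 0.00141, adjusted p = 0.066). Without the pair of tumors farthest from the list's median r was 0.71 (permutation p = 0.0174). It was 0.94 within *G-Smo* (exact permutation p = 0.0417) and 0.74 within *M-Smo* tumors (exact permutation p = 0.0944). Choroid plexus is a derivative of the roof plate, where *Lmx1a* acts in development. The list mean was 6.83 to 6.97 in *G-Smo* tumors other than replicate 5, which had 7.97, and 6.93 to 8.70 in *M-Smo* tumors. *Ttr*, the transthyretin gene by which choroid plexus is known, read 6.14 to 11.89 in *G-Smo* and 6.74 to 12.86 in *M-Smo* tumors. *M-Smo* replicate 1 had a high list mean (8.06) with a low *Lmx1a* (5.08). How much of the *Lmx1a* signal came from choroid plexus was not tested. *Lmx1a* also ran with the list of unipolar brush and rhombic lip genes, which shares *Otx2* with the choroid plexus list. The mean of that list was 8.62 to 8.66 in *G-Smo* and 8.70 to 8.87 in *M-Smo* tumors with no overlap, so r is given within genotypes. It was 0.63 in *G-Smo* (exact permutation p = 0.143) and 0.74 in *M-Smo* tumors (exact permutation p = 0.115).

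*Slc17a7* was correlated with the mean of 14 genes of the granule neuron lineage, at r = 0.85 (permutation p = 0.00077, adjusted p = 0.0252 over the family) and rho = 0.77 (permutation p = 0.00482, adjusted p = 0.0675). This rests in large part on *G-Smo* replicates 3 and 4, the tumors with the lowest and highest list mean (10.17 and 10.53). Without these tumors r was 0.58 (permutation p = 0.0778). Within *G-Smo* tumors it was 0.97 (exact permutation p = 0.00139) and within *M-Smo* tumors 0.46 (exact permutation p = 0.376). Other neuron lists gave like values. With the Purkinje cell list r was 0.79 (permutation p = 0.00266, adjusted p = 0.0639) and 0.25 without the pair of tumors farthest from that list's median (permutation p = 0.449). With the general neuron list r was 0.59 (permutation p = 0.067, adjusted p = 0.438) and rho 0.86 (permutation p = 0.00057, adjusted p = 0.0559), and within *G-Smo* tumors r was 0.93 (exact permutation p = 0.00278). With the GABAergic and glycinergic list r was 0.94 within *G-Smo* (exact permutation p = 0.00694) and 0.48 within *M-Smo* tumors (exact permutation p = 0.388). With the mitosis list it was -0.93 (exact permutation p = 0.0167) and -0.77 (exact permutation p = 0.0806). The relation is thus not shown to be particular to the granule lineage. *Gabra6*, a GABA-A receptor subunit of mature granule neurons, ran from 7.00 to 8.69 in *G-Smo* and from 8.02 to 8.46 in *M-Smo* tumors.

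*Calb2* was set against 9 measured genes of GABAergic and glycinergic neurons. Their list mean was 6.69 to 7.17 in *G-Smo* and 7.29 to 7.93 in *M-Smo* tumors with no overlap, so no pooled correlation is given. Within 6 *G-Smo* tumors r was 0.72 (exact permutation p = 0.11) and within 6 *M-Smo* tumors 0.74 (exact permutation p = 0.0958). With the granule lineage list r was 0.90 in *G-Smo* (exact permutation p = 0.0153) and -0.20 in *M-Smo* tumors (exact permutation p = 0.681). With the general neuron list it was 0.78 (exact permutation p = 0.0806) and 0.58 (exact permutation p = 0.265). The relation is thus not shown to be particular to GABAergic and glycinergic neurons. After the genotype means were subtracted no relation of the 98 passed. The r was then 0.80 for *Lmx1a* with the choroid plexus list (permutation p = 0.0081, adjusted p = 0.132), 0.88 for *Slc17a7* with the granule lineage list (permutation p = 0.00183, adjusted p = 0.0725) and 0.64 for *Calb2* with the GABAergic and glycinergic list (permutation p = 0.0166, adjusted p = 0.204). *Slc17a7* had the same adjusted p with the general neuron (0.58, permutation p = 0.00102), GABAergic and glycinergic (0.66, permutation p = 0.00296) and mitosis lists (-0.48, permutation p = 0.00266). The strongest r of *Calb2* was -0.84, with the forebrain list (permutation p = 0.00452, adjusted p = 0.0886).

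**Figure D4:**
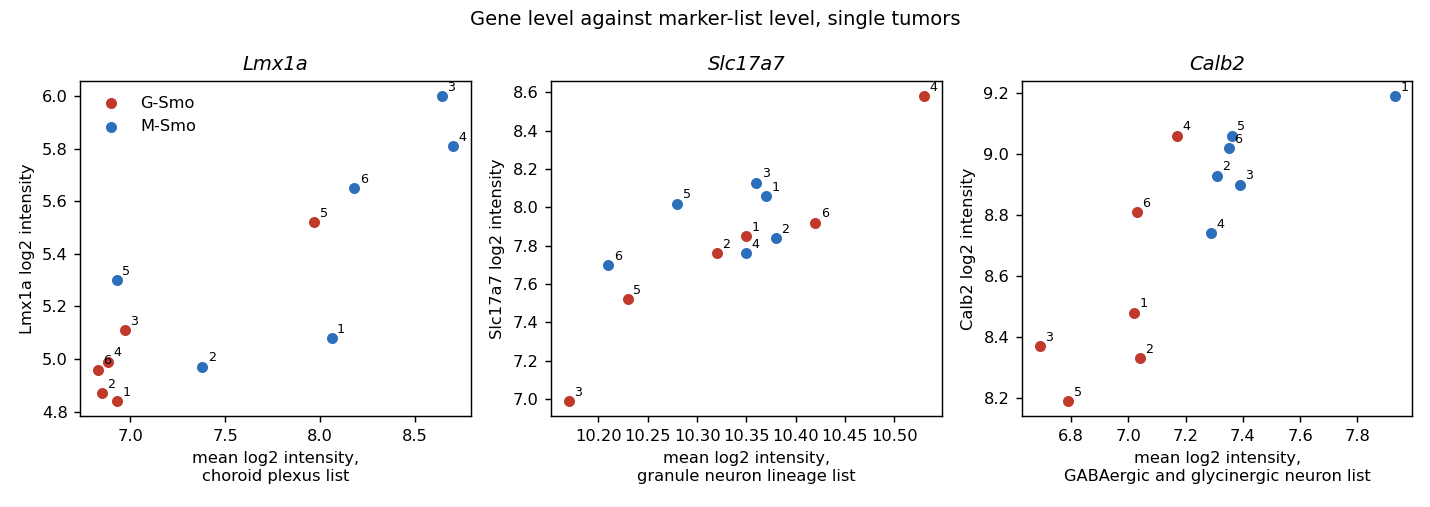
Log2 intensity of *Lmx1a*, *Slc17a7* and *Calb2* (vertical axes) against the mean log2 intensity of a marker list (horizontal axes), 1 point per tumor with its replicate number, *G-Smo* and *M-Smo* in separate colours. *Lmx1a* is highest, at 5.65 to 6.00, in 3 *M-Smo* tumors with a choroid plexus mean of 8.18 to 8.70, and *Slc17a7* is lowest and highest in *G-Smo* replicates 3 and 4.

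Of 7 measured genes of unipolar brush cells and the rhombic lip outside the 7 members (*Otx2*, *Wls*, *Plcb1*, *Plcb4*, *Cdh7*, *Gdf7* and *Sgpp2*), 1 passed on the lower side in *G-Smo* tumors and none on the higher side, against 1.29% and 1.27% of all probe sets. *Cdh7*, a classical cadherin, read 7.22 to 7.50 in *G-Smo* tumors, against 7.64 to 7.98 in *M-Smo* tumors, without overlap. The difference was -0.43 ± 0.07 (SE), with an adjusted p of 0.0141 from limma. All 7 had a difference below 0, from -0.43 to -0.01, with a median of -0.12 against 0.00 over all probe sets. The share of all probe sets below 0 was not counted. At an unadjusted p under 0.05 only *Cdh7* was lower, against 8.65% of all probe sets. *Wls*, which exports Wnt ligands and marks the interior rhombic lip, differed by -0.17 (adjusted p = 0.306 from limma), and *Otx2*, a factor of the posterior rhombic lip, by -0.08 (adjusted p = 0.721 from limma).

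Of 8 genes listed for glutamatergic nuclear neurons (*Lhx2*, *Lhx9*, *Lmx1b*, *Irx3*, *Reln*, *Olig3*, *Pou3f1* and *Nhlh1*), 1 was higher in *G-Smo* tumors, none was lower and 7 did not pass. Over all probe sets 1.27% passed on the higher side and 1.29% on the lower side. The list is not particular to these neurons, since the authors give *Nhlh1* as a marker of differentiating tumor cells. *Lhx2*, a LIM-homeodomain factor, read 8.13 to 8.56 in *G-Smo* tumors, against 7.71 to 8.13 in *M-Smo* tumors, and the groups met at 8.13. The difference was 0.44 ± 0.09 (SE), with an adjusted p of 0.0318 from limma. It no longer passed when any 1 of 8 tumors was left out, *G-Smo* replicates 1 to 5 and *M-Smo* replicates 1 to 3 (highest adjusted p = 0.0756 from limma), and with the sex covariate (adjusted p = 0.115 from limma). *Olig3*, a rhombic lip progenitor factor, differed by -0.44 (adjusted p = 0.0575 from limma), and *Lhx9*, a partner of *Lhx2* in nuclear neurons, by 0.49 (adjusted p = 0.124 from limma). The list's median difference was 0.04.

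Among 7 measured relatives of the 7 genes none passed, and *Pbx3*, a partner of MEIS proteins, at 0.19 (adjusted p = 0.0899 from limma), and *Lmx1b*, at -0.25 (adjusted p = 0.11 from limma), came nearest. *Slc17a8*, the remaining vesicular glutamate transporter, differed by -0.13 (adjusted p = 0.539 from limma). Among 7 genes of glutamate handling 1 was lower in *G-Smo* tumors, against 1.29% of all probe sets. This was *Slc1a1*, which encodes a neuronal glutamate transporter. It read 8.94 to 9.36 in *G-Smo* tumors, against 9.49 to 9.98 in *M-Smo* tumors, without overlap. The difference was -0.42 (adjusted p = 0.0437 from limma). It no longer passed when any 1 of 11 tumors was left out, all but *G-Smo* replicate 4 (highest adjusted p = 0.0971 from limma).

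Of the 14 granule lineage genes, 1 was higher in *G-Smo* tumors, none was lower and 13 did not pass. For this and the lists below, 1.27% of all probe sets passed on the higher side and 1.29% on the lower side. *Barhl2*, a homeodomain factor of the rhombic lip, differed by 0.50 ± 0.08 (SE), with an adjusted p of 0.0115 from limma, and its adjusted p was 0.0523 with the sex covariate. Of 9 GABAergic and glycinergic genes 1 was lower, *Pax2*, a factor of inhibitory interneuron precursors, at -0.87 ± 0.13 (SE) with an adjusted p of 0.00668 from limma, and 8 did not pass. At an unadjusted p under 0.05, 7 of the 9 were lower, against 8.65% of all probe sets, and 1 was higher, *Pax3* (0.25), against 10.2%. In the brain stem and midbrain lists, *Isl1* (-1.88, adjusted p = 0.000767 from limma) and *Pou4f1* (0.90, adjusted p = 0.0028 from limma) were the genes that passed. No gene passed among 4 Purkinje cell, 8 general neuron, 5 forebrain, 7 choroid plexus and 5 mitosis genes, and those with the smallest p were *Foxp2* (0.32) and *Ppp1r17* (-0.42), *Snap25* (-0.35) and *Nefl* (-0.94), *Neurod2* (-0.23) and *Lhx6* (-0.17), *Ttr* (-3.89) and *Folr1* (-0.80), and *Mki67* (0.15) and *Top2a* (0.17). The adjusted p nearest the threshold among these was 0.0503, for *Foxp2* (limma).

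Median log2 values per array ran from 6.39 to 6.42 in *G-Smo* and from 6.38 to 6.41 in *M-Smo* tumors. *Atoh1*, which defines the granule neuron progenitors of these tumors, read 11.98 to 12.26 in *G-Smo* and 11.68 to 12.24 in *M-Smo* tumors. *Prm1*, part of the *hGFAP-Cre* transgene, read 10.09 to 10.54 in *G-Smo* tumors, against 5.19 to 5.76 in *M-Smo* tumors. For arrays, the number of tumors limits the precision.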

How the data were processed

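RNA from 12 untreated tumors, 6 *G-Smo* and 6 *M-Smo*, was measured on Affymetrix arrays. The values the authors deposited are log2 intensities, 1 per probe set, from RMA, which corrects background, gives all arrays a like distribution and summarizes probes. Partek software is named in the methods. Versions and filters are not given in the sources used here. RMA pulls arrays together, so a shift common to all genes would not be seen. Genes were named from the platform annotation, and 100 of 113 list genes could be measured. The highest-mean probe set stood for a gene.

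Genotypes were compared with limma 3.58.1 (R 4.3.3) without covariates over all 41345 probe sets, two-sided, with Benjamini-Hochberg adjustment and a threshold of 0.05. Single values were tested by exact permutation over the 924 assignments of 6 tumors against 6. Correlations used 100000 permutations of the tumors, or all 720 within a genotype (numpy 2.4.6, scipy 1.17.1), and figures matplotlib 3.10.9. The steps were tested on simulated data. Alternatives were quantile normalization or median centring of arrays, dropping probe sets under the 40th percentile in mean, other choices of probe sets, trend and robust settings, an unmoderated test, array weights, a covariate for sex from *Xist* and Y-linked genes, a replicate block and leaving out each tumor. Genes named are the 7, list genes past the threshold or else the 2 with the smallest p, the 3 genes most like each of the 7, and *Xist*, *Prm1* and *Isl1*. *Wls*, *Otx2*, *Olig3*, *Lhx9*, *Slc17a8*, *Gabra6*, *Pax3* and *Atoh1* were added after their values had been seen. The members and lists were chosen with earlier results of these data known. The labels give no litter or batch, and p-values measure the spread between these tumors.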

Additional observations from a re-analysis of the deposited data

Results flagged for a closer look

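Among 14 groups of 6 tumors, 2 held a tumor whose gap to the nearest other tumor was large for the range of its group, and chance gives such a gap in about 1 of 20 groups. *Tbr1* had a log2 intensity of 5.63 in *G-Smo* replicate 3, against 4.89 to 5.12 in the other *G-Smo* tumors. *Meis2* had 9.03 in *M-Smo* replicate 1, where the remaining *M-Smo* tumors had 5.61 to 6.79. *G-Smo* replicate 3 also had the lowest mean of the Purkinje cell list, 9.31 against 9.66 to 10.20 in the other *G-Smo* tumors, and the lowest *Slc17a7*. *Lmx1a* in *G-Smo* replicate 5, at 5.52, came near this limit.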

How the results depend on the processing

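The sign of the difference held in every setting run for *Eomes*, *Lmx1a*, *Calb2*, *Meis2* and *Slc17a6*. *Tbr1* turned to -0.02 with the sex covariate, -0.04 without *G-Smo* replicate 3, and -0.01 without *G-Smo* replicate 3 and *M-Smo* replicate 1 together, a setting chosen after seeing the data. *Slc17a7* turned to 0.01 and 0.04 in the last 2 of these. Calls were gained by *Slc17a6* with array weights (0.39) and by *Calb2* without *G-Smo* replicate 4 (-0.54), and the causes were not tested. Leaving out single tumors, the differences were -0.20 to -0.08 for *Eomes*, -0.52 to -0.31 for *Lmx1a*, -0.54 to -0.36 for *Calb2*, -0.04 to 0.10 for *Tbr1*, 0.68 to 1.37 for *Meis2*, 0.28 to 0.38 for *Slc17a6* and -0.31 to 0.01 for *Slc17a7*. The 1057 probe sets called became 1881 with the filter at the 40th percentile, where fewer are tested and *Lmx1a* and *Tbr1* drop out, 420 with the sex covariate, 292 without *G-Smo* replicate 3 and *M-Smo* replicate 1, and 367 to 942 with each tumor left out. The replicate number as a block gave 113, and 2 in place of 7 called list genes, and it called none of the 7 members. The labels do not say that the numbers pair the tumors, and whether they stand for a litter or batch was not tested. Deviations of tumors with the same number correlated at -0.14 to 0.11, and 1 of 6 *G-Smo* tumors correlated best with its own number. With each tumor left out the called list genes numbered 5 to 9. No pair of the 7 genes passed in any setting for correlation. Each gene has 1 probe set, so other probe sets could not be tried. Dim signal limits *Lmx1a* and *Tbr1*.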
